A study of Mus musculus with 82 samples.

Results

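Runx1, Runx2, Runx3 and Cbfb were followed across all mRNA-seq libraries of a study of hematopoietic stem cell (HSC) aging in male C57BL/6J mice, and at the accessible regions and histone peaks of the same genes. The members are the 4 rows with these gene symbols among the 55376 genes of the count files, selected by name with no threshold on a measured value. The mRNA-seq libraries comprised 4 of HSCs from young mice of 3 to 4 months (YHSCs, several mice pooled per sample) and 8 of HSCs from old mice of 24 to 26 months (OHSCs, one mouse per sample), all sorted as CD150+ cells without CD34 and Flk2 from the lineage-negative Sca-1+ c-Kit+ (LSK) compartment. A further 12 libraries came from OHSCs transduced with a lentivirus that carried a scramble control or one of 2 shRNAs against the unique 3′ end of a short Btaf1 variant, with 2 libraries for each virus in each of 2 settings. In the first setting the cells were kept in culture and sorted 3.5 days after transduction. In the second setting they were transplanted into lethally irradiated CD45.1 female recipients and recovered more than 4 months later as GFP+ CD45.2+ LSK CD48- CD150+ cells, from pools of 2 to 4 recipients. The last 6 libraries were 2 each of common myeloid progenitors (CMP), granulocyte-monocyte progenitors (GMP) and megakaryocyte-erythroid progenitors (MEP) of young wild-type mice. ATAC-seq was analysed in 4 YHSC and 4 OHSC libraries, and ChIP-seq of H3K27ac, a mark of active promoters and enhancers, in 2 and 2.

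RUNX proteins are DNA-binding factors that share a runt domain, and each binds DNA well only as a heterodimer with CBFβ, the product of Cbfb, which does not itself touch DNA. RUNX1 is needed for the emergence of HSCs in the embryo and for megakaryocyte and lymphoid maturation in the adult, RUNX2 is best known as the master factor of bone formation, and RUNX3 as a factor of cytotoxic T cells and innate lymphocytes. The mouse Runx genes are each read from a distal promoter, called P1, and a proximal one, called P2, which give proteins with different N termini.

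In mm10 coordinates with GENCODE gene models, Runx1 (ENSMUSG00000022952.17) spans chr16:92601466-92826149 on the minus strand, Runx2 (ENSMUSG00000039153.16) spans chr17:44495987-44814797 on the minus strand, Runx3 (ENSMUSG00000070691.10) spans chr4:135120652-135177990 on the plus strand and Cbfb (ENSMUSG00000031885.14) spans chr8:105170674-105217989 on the plus strand. Their exons cover 12025, 8837, 5003 and 3480 bases. The core word that RUNX proteins recognise is TGTGGT, or ACCACA on the other strand. The distal promoters of the 3 Runx genes each held 2 such words at the same spacing, and they are shown because the same 18 letters recur in all 3 genes. The stretches are taken from the RefSeq reference assembly GRCm38.p6, the patch release of mm10, and are read 5′ to 3′ on the strand of the gene, with the core word ACCACA in capitals.
Runx1 distal promoter, chr16:92826025-92826054, minus strand: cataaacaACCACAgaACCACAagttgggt
Runx2 distal promoter, chr17:44814583-44814612, minus strand: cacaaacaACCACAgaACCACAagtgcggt
Runx3 distal promoter, chr4:135120503-135120532, plus strand: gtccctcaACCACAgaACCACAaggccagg
The longest stretch shared by all 3 was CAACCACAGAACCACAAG. It lay 26 bases downstream of the RefSeq start of Runx1, 21 bases downstream of that of Runx2 and upstream of that of Runx3, at -136. It was searched for after these sequences had been seen, and was found on either strand in 4 of 32851 promoter windows of 300 bases in the RefSeq table, which were those of Runx1, Runx2, Runx3 and Gm16225, whose window overlaps that of Runx3. Of 127692 accessible regions 3 held it, which were the distal promoters of the Runx genes.

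The labelled cell types were checked against marker genes, and 8 of 8 HSC markers were present in every YHSC and OHSC library, with a sum of 4099 to 4322 CPM (counts per 1000000 reads, scaled by TMM over 30 libraries) in YHSCs and 3960 to 4420 CPM in OHSCs. Sums of markers of other cell types differed between the ages without overlap for megakaryocytes (432 to 462 CPM in YHSCs, 791 to 1109 CPM in OHSCs, most of it Vwf and Itga2b, with mean Pf4 at 24.8 and 23.99 CPM and Ppbp lower at 3.47 and 1.92 CPM), T and NK cells (33.2 to 36.6 against 70.7 to 95.2 CPM, most of it Klrb1c in OHSCs, with Cd3e, Cd3d and Ncr1 below 1 CPM), granulocytes and monocytes (128 to 153 against 269 to 324 CPM, most of it Prtn3), B cells (71.3 to 121 against 34.6 to 40.9 CPM) and erythroid cells (138 to 198 against 28.5 to 102 CPM, the fall mostly in Car1, with Hba-a1 higher in OHSCs). MEP libraries held 7314 to 7840 CPM of erythroid markers and 29.2 to 30.2 CPM of megakaryocyte markers, with Gp1bb, Ppbp and the HSC marker Procr at 0. Fewer cells of a type and less RNA per cell cannot be told apart in such bulk libraries. Gene counts summed to between 20475764 and 24654742 reads in the HSC libraries of both ages, 37292602 to 42737054 in the shRNA libraries, 33177394 to 36510850 in the progenitors and 15427933 to 26260337 in ATAC-seq.

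Cbfb and Runx1 were abundant in HSCs, Runx2 was intermediate and Runx3 was low. Counted per kb of exon, mean YHSC levels were 43.5 CPM per kb for Cbfb, 11.8 for Runx1, 7.37 for Runx2 and 2.77 for Runx3. The exon length joins all annotated transcripts of a gene, and which transcripts were expressed was not measured. Ratios and shares between genes, here and below, depend on that length. By this measure Cbfb, the shared partner subunit, stood at 1.98 times the sum of the 3 Runx genes in YHSCs and 1.86 times in OHSCs. The same ratio was 3.198 in GMP, 2.37 in CMP and 0.535 in MEP, the one group of 11 in which the Runx genes together exceeded Cbfb.

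**Figure D1:**
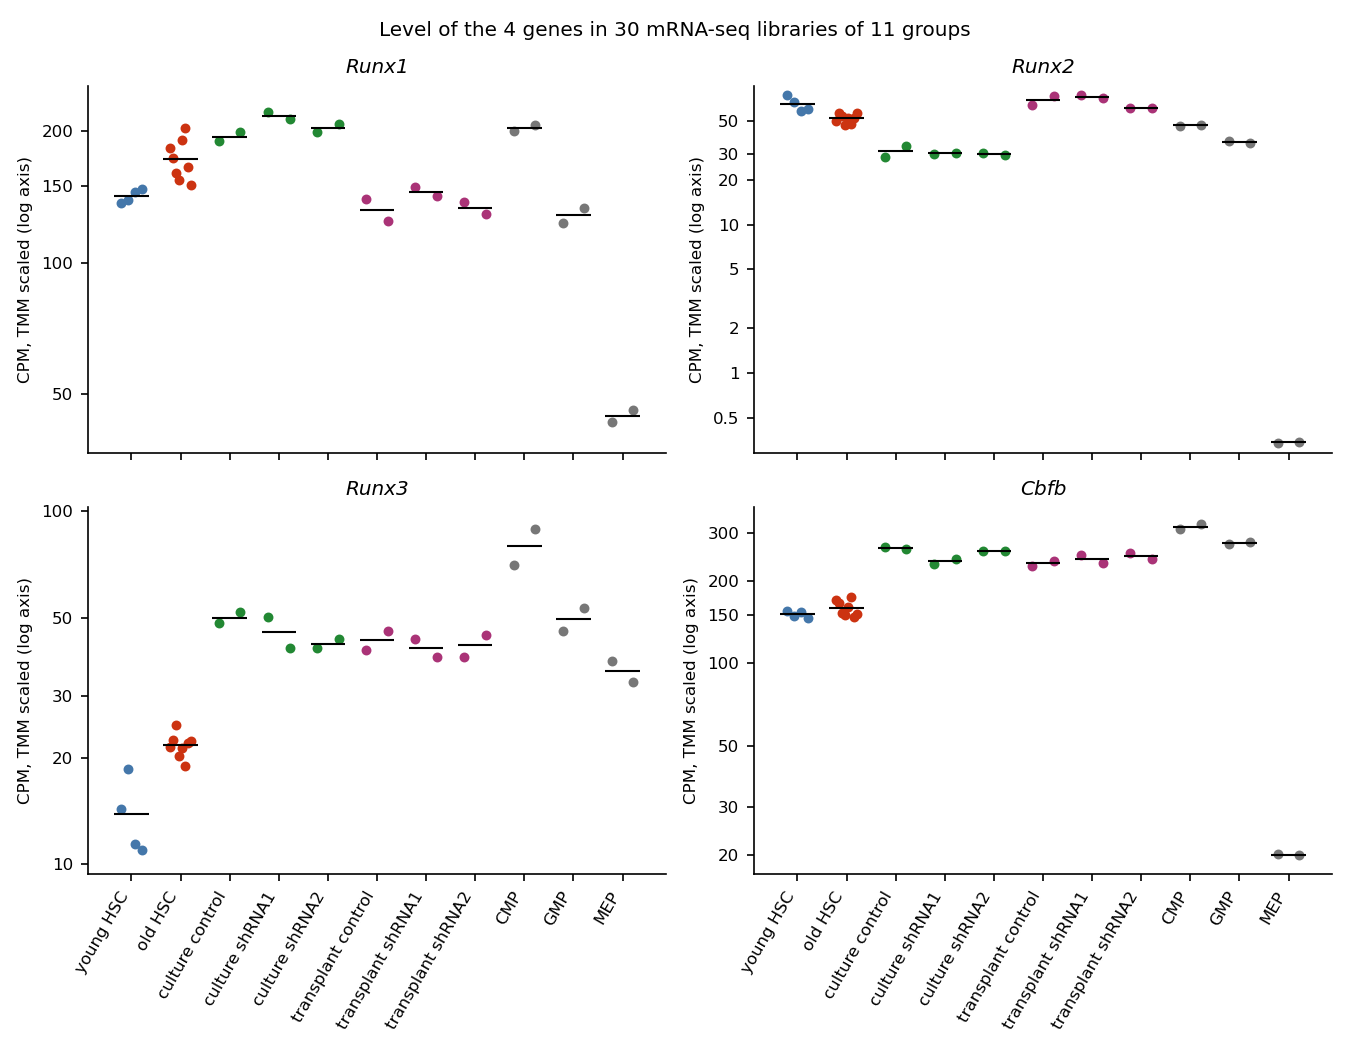
Level of each gene (y axis, CPM on a log scale) in the 30 mRNA-seq libraries (points) by group (x axis: YHSC, OHSC, the 6 shRNA groups, CMP, GMP and MEP). Runx2 and Cbfb fall to 0.340 and 20.1 CPM on average in MEP, while Runx3 is lowest in YHSCs at 13.8 CPM.

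The 4 genes ranked the 11 groups in 4 different orders. Across HSC, shRNA and progenitor libraries the cell type, the library kit and the sequencing run cannot be told apart, so the order is given as a description. Runx1, the HSC and megakaryocyte factor, was highest in cultured OHSCs with shRNA1 (mean 217 CPM), followed by cultured shRNA2 and CMP (both 204 CPM, libraries overlapping), the cultured control (195 CPM) and OHSCs (173 CPM), which also overlapped. The 3 transplanted groups, YHSCs and GMP followed between 145 and 129 CPM with each overlapping its neighbour, and MEP was apart at 44.5 CPM. Runx2 was highest in transplanted cells with shRNA1 (73.2 CPM), the transplanted control (69.0 CPM), YHSCs (65.2 CPM) and transplanted cells with shRNA2 (61.5 CPM), whose libraries overlapped in that order. OHSCs (52.1 CPM) and CMP (46.7 CPM) came next and overlapped, then GMP (36.1 CPM), the 3 cultured groups (31.43, 30.23 and 30.01 CPM, overlapping) and MEP at 0.340 CPM, where both libraries held 10 reads of the gene.

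Runx3 stood apart at the top in CMP (79.9 CPM). The cultured control (49.9 CPM), GMP (49.6 CPM) and the other 5 shRNA groups (45.6 to 41.1 CPM) each overlapped the next, and MEP (35.3 CPM), OHSCs (21.7 CPM) and YHSCs (13.8 CPM) were separate steps below them. Transplanted control cells held 40.5 and 45.8 CPM of Runx3, above the highest OHSC library sorted directly from mice at 24.7 CPM. Cbfb was highest in CMP (315 CPM), GMP (275 CPM) and the cultured control (263 CPM), each separate from the next. The other shRNA groups lay between 258 and 232 CPM, OHSCs (159 CPM) and YHSCs (151 CPM) overlapped, and MEP was lowest at 20.1 CPM.

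As a share of the summed Runx CPM per kb of the group means, Runx1 made up 53.8% in YHSCs, Runx2 33.6% and Runx3 12.6%. In OHSCs the shares were 58.42%, 23.96% and 17.62%. The Runx2 share was 31.7 to 37.3% in the 4 YHSC libraries and 20.7 to 27.4% in the 8 OHSC libraries, with no overlap, whereas the libraries overlapped for the Runx1 share (50.1 to 57.8% and 53.5 to 64.8%) and the Runx3 share (10.3 to 16.2% and 14.5 to 20.2%). The sum itself was 21.97 CPM per kb in YHSCs and 24.61 in OHSCs. In CMP, Runx1 held 44.3% and Runx3 41.8%. Runx3 held 65.4% in MEP, where the sum was 10.8 CPM per kb and Runx2 held 0.357%.

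**Figure D2:**
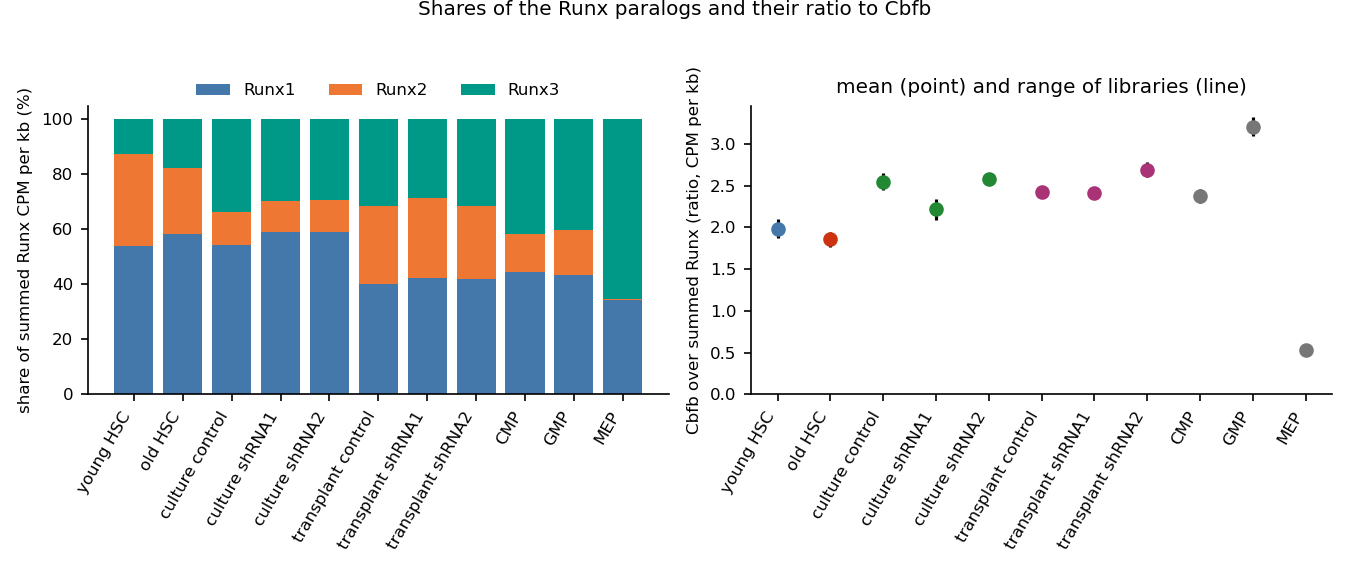
Left, share of each Runx gene in the summed Runx level (y axis, percent of CPM per kb of exon, mean over libraries) in the 11 groups. Right, ratio of Cbfb to that sum (mean as a point, range of libraries as a line), which is lowest in MEP at 0.535.

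The 3 Runx genes changed with age in HSCs, and not in one direction. Runx1 rose 1.23-fold, Runx3 rose 1.59-fold and Runx2 fell 1.23-fold in OHSCs, and the small rise of Cbfb did not pass the test. Levels of Runx1 in the 4 YHSC libraries were 137, 139, 145 and 148 CPM, and in the 8 OHSC libraries the lowest was 151 CPM, the median 170 CPM and the highest 204 CPM. The groups did not overlap, and the log2 difference was 0.30 (SE 0.0663, adjusted p = 0.00234 by edgeR's quasi-likelihood test). Runx2 levels were 74.8, 67.1, 58.9 and 59.9 CPM in YHSCs, against a lowest of 46.7, a median of 52.2 and a highest of 56.9 CPM in OHSCs. All OHSC libraries were below all YHSC libraries, with a log2 difference of -0.30 (SE 0.0640, adjusted p = 0.00113 by edgeR).

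Runx3 was the gene with the largest change of the 4. Its YHSC levels were 14.3, 18.6, 11.42 and 10.99 CPM and its OHSC levels had a lowest of 19.0, a median of 21.7 and a highest of 24.7 CPM. The groups were separate, although the highest YHSC library came within 1 CPM of the lowest OHSC library, and the log2 difference was 0.67 (SE 0.111, adjusted p = 0.00011 by edgeR). Cbfb levels were 155, 150, 154 and 146 CPM in YHSCs and had a lowest of 148, a median of 157 and a highest of 174 CPM in OHSCs. These overlapped, with a log2 difference of 0.09 (SE 0.0446, adjusted p = 0.153 by edgeR).

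Thus 3 of the 4 genes were called at an adjusted p below 0.05, where 20.6% of the 21522 genes tested were called (11.9% higher and 8.67% lower), and 1 of 4 was also changed by more than 1.5-fold, where 7.52% were. The libraries of the ages did not overlap for 3 of the 4, against 13.8% of all genes tested. Among all genes, 5.09% had a higher log2 difference than Runx3, 13.7% a higher one than Runx1, and 15.8% a lower one than Runx2. YHSC samples were pools of mice and OHSC samples single mice. Young animals were bought from The Jackson Laboratory, and old ones came from the NIA Aged Rodent Colony. Age, pooling and source of the mice therefore cannot be told apart. The difference in source also holds for the ATAC-seq and H3K27ac comparisons below. The marker sums of megakaryocytes, T and NK cells, and granulocytes and monocytes given above moved in the same direction as Runx1 and Runx3. The B cell and erythroid sums moved in the same direction as Runx2. The part of these sums in the differences was not tested.

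**Figure D3:**
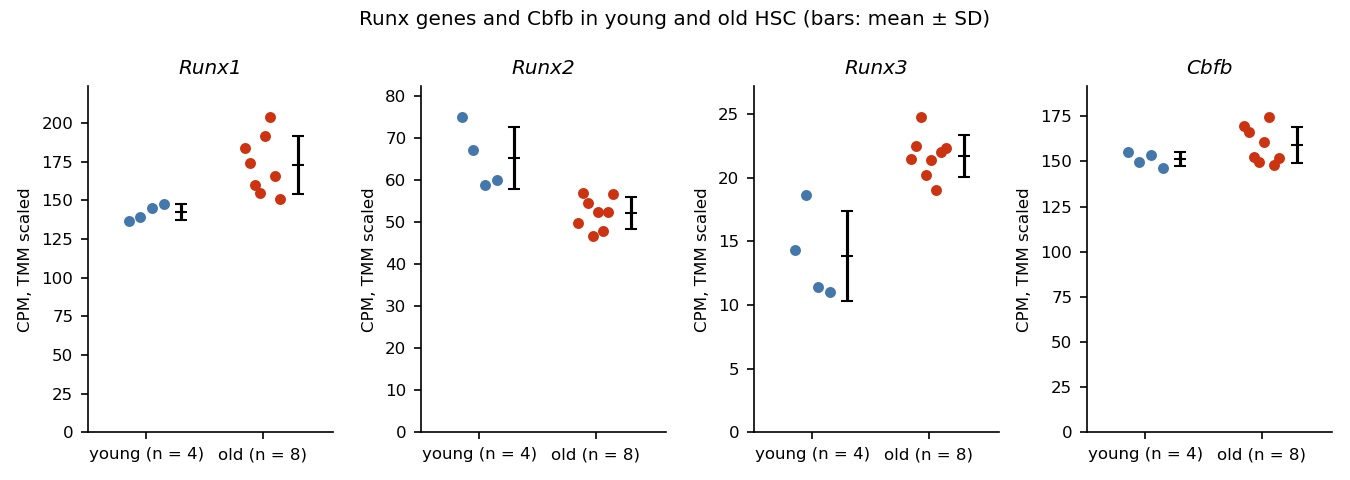
Level of each gene (y axis, CPM from 0) in 4 YHSC and 8 OHSC libraries (points), with the mean and SD as bars. All OHSC points lie above all YHSC points for Runx1 and Runx3 and below them for Runx2, while those of Cbfb overlap.

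Genes on the opposite strand lie within Runx1, Runx2 and Runx3, and the sources used here do not give the strand setting of the counting, so reads of a gene and its antisense partner could be mixed. Gm26626, antisense within Runx1, was at 7.96 CPM in YHSCs and 9.65 CPM in OHSCs (log2 difference 0.30, adjusted p = 0.0329 by edgeR). Supt3, a protein-coding gene whose span overlaps the 5′ part of Runx2, was at 36.5 and 37.7 CPM (0.07, adjusted p = 0.542). Runx2os1 was at 7.46 and 6.56 CPM, Runx2os2 at 3.16 and 2.22 CPM and Gm16224, within Runx3, at 0.251 and 0.579 CPM, none of them called.

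Knockdown of the short Btaf1 variant did not move any of the 4 genes past the test when both shRNAs were pooled. The targeted gene was checked first. Counted over all its transcripts, Btaf1 was at 149 to 152 CPM in cultured control cells and 116 to 125 CPM with the shRNAs (log2 difference -0.31, SE 0.0465, adjusted p = 0.00151 by edgeR), and at 156 to 161 against 114 to 135 CPM after transplantation (-0.37, SE 0.0767, adjusted p = 0.791 by edgeR). In culture, where edgeR called 3.36% of genes (1.7% higher and 1.66% lower) and 15.3% had an unadjusted p below 0.05, 0 of the 4 members were called and 1, Runx1, had an unadjusted p below 0.05. DESeq2 called none of them either. Runx1 was at 190 and 199 CPM in the cultured control, at 221 and 214 CPM with shRNA1 and at 200 and 208 CPM with shRNA2. All 4 shRNA libraries were above both controls by a log2 difference of 0.12 (SE 0.0474, adjusted p = 0.209 by edgeR), with an interval of 1.96 SE from 0.03 to 0.22.

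Runx2 was at 28.8 and 34.0 CPM in the cultured control, 29.9 and 30.5 CPM with shRNA1 and 30.5 and 29.5 CPM with shRNA2, and these overlapped (log2 difference -0.05, interval -0.21 to 0.11). Runx3 was at 48.2 and 51.7 CPM in the control, 50.1 and 41.0 CPM with shRNA1 and 41.0 and 43.4 CPM with shRNA2, so that 1 shRNA library lay within the control range (-0.18, interval -0.34 to -0.01). For Cbfb the cultured control held 265 and 261 CPM, shRNA1 231 and 240 CPM and shRNA2 258 CPM in each library. All 4 shRNA libraries were below the controls by a log2 difference of -0.08 (interval -0.18 to 0.01, adjusted p = 0.435 by edgeR). With shRNA1 alone against the control, Runx1 (0.17, adjusted p = 0.00545 by edgeR) and Cbfb (-0.15, adjusted p = 0.0137) were called, and with shRNA2 alone Runx3 was (-0.24, adjusted p = 0.0487). Many more genes were called in these fits than with the shRNAs pooled. With shRNA1 alone 805 of 19184 genes tested were higher and 1111 lower, and with shRNA2 alone 663 of 19118 were higher and 807 lower. Both comparisons shared the 2 control libraries.

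After transplantation edgeR called 0% of genes, and 1138 genes (5.59%) had an unadjusted p below 0.05, whereas DESeq2 called 60 genes. Neither called any of the 4 members, and none had an unadjusted p below 0.05 by edgeR. Runx1 was at 140 and 125 CPM in the transplanted control, 149 and 142 CPM with shRNA1 and 138 and 129 CPM with shRNA2 (log2 difference 0.07, interval -0.08 to 0.22). For Runx2 the values were 64.5 and 73.5 CPM, then 75.0 and 71.5 CPM, then 61.2 and 61.7 CPM (-0.04, interval -0.24 to 0.17). The shRNA libraries of Runx1 lay within or above the control range, and those of Runx2 within it or on both sides of it.

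Runx3 was at 40.5 and 45.8 CPM in the transplanted control, 43.4 and 38.7 CPM with shRNA1 and 38.6 and 44.7 CPM with shRNA2, which overlapped (log2 difference -0.06, interval -0.26 to 0.13). The Cbfb levels were 227 and 237 CPM, then 248 and 232 CPM, then 253 and 241 CPM, also overlapping (0.07, interval -0.05 to 0.18). The knockdown difference after transplantation minus that in culture was -0.05 for Runx1, 0.01 for Runx2, 0.12 for Runx3 and 0.15 for Cbfb on the log2 scale, with edgeR adjusted p from 0.611 to 0.996. Across all genes this interaction was called for 0.21%.

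Among the progenitors, all 4 genes were highest in CMP and lowest in MEP. In MEP, Cbfb was 15.7-fold, Runx1 4.58-fold, Runx3 2.26-fold and Runx2 136-fold below CMP, the last resting on 10 reads per MEP library. The 2 CMP libraries held 201 and 207 CPM of Runx1, the GMP libraries 124 and 134 CPM and the MEP libraries 43.0 and 45.9 CPM. Runx1 in GMP was below CMP by a log2 difference of -0.61 (SE 0.0634, adjusted p = 8.29e-06 by edgeR) and in MEP by -2.20 (SE 0.0676, adjusted p = 6.46e-12). The 3 groups did not overlap.

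Runx2 was at 46.7 and 46.8 CPM in CMP, 36.6 and 35.5 CPM in GMP and 0.339 and 0.341 CPM in MEP. The difference of GMP from CMP was -0.32 (SE 0.102, adjusted p = 0.0256 by edgeR), a call that was lost when either library of either group was left out (adjusted p from 0.0812 to 0.133), and that of MEP was -7.08 (SE 0.176, adjusted p = 7.42e-13). Runx3 was at 70.6 and 89.3 CPM in CMP, 45.8 and 53.3 CPM in GMP and 37.8 and 32.9 CPM in MEP, with differences of -0.64 (SE 0.124, adjusted p = 0.00196 by edgeR) and -1.18 (SE 0.127, adjusted p = 6.23e-06) from CMP. The spread between the 2 CMP libraries was wider for Runx3 than for the other 3 genes.

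Cbfb was at 308 and 323 CPM in CMP, 272 and 277 CPM in GMP and 20.18 and 19.99 CPM in MEP. GMP was below CMP by -0.15 (SE 0.0515, adjusted p = 0.0392 by edgeR), which was lost without CMP replicate 2 (adjusted p = 0.250), GMP replicate 1 (0.177) or GMP replicate 2 (0.0884). MEP was below CMP by -3.97 (SE 0.0619, adjusted p = 9.47e-15) and below GMP by -3.82. MEP was also below GMP for Runx1 (-1.58), Runx2 (-6.76) and Runx3 (-0.54, SE 0.128, adjusted p = 0.00326 by edgeR). All 4 genes were called in all 3 comparisons, against 34.8% of genes for GMP and CMP (18.8% higher and 16% lower in GMP), 64.6% for MEP and CMP (28.9% higher and 35.6% lower in MEP) and 61.4% for MEP and GMP. The comparisons share libraries, so their values stand side by side only. MEP libraries held 35.9 to 64.4 CPM of granulocyte and monocyte markers, against at least 17799 CPM in each CMP library, and the part of cell mixture in the MEP values was not tested.

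YHSCs were also set against CMP, where 78.3% of genes were called and the median log2 difference of all genes was 0.49. Cell type and library set cannot be told apart there. Runx3 was 5.94-fold lower in YHSCs (log2 difference -2.57, SE 0.203, adjusted p = 7.01e-06 by edgeR), Cbfb 2.14-fold lower (-1.10) and Runx1 1.47-fold lower (-0.56). Runx2 was higher by 0.44, which is no more than the median of all genes in that comparison.

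Over the 11 group means, the genes with the most similar pattern were Plek, Itga2b and Ubash3b for Runx1 (Pearson r of 0.986, 0.984 and 0.978 on log2 CPM), and Runx2os1, Il16 and Elk3 for Runx2 (each 0.997). For Cbfb they were Ripk3, Eml4 and Vim (0.993, 0.992 and 0.992) and for Runx3 Gm12501, Sinhcaf and Hmgb1-ps4 (0.946, 0.940 and 0.936). These were the top 3 of 29260 genes for each member, a description in which the groups share library sets. Runx2os1 is antisense to Runx2 at its proximal promoter, so its reads could be mixed with those of Runx2 if strand was not used in counting. Runx1, Runx2 and Cbfb were all lowest in MEP, and the likeness without MEP was not tested.

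Regions at the 4 genes were called with age less often than regions across the genome. Accessibility rose at a few sites, 5 of them in introns and 1 at the distal promoter of Runx2. No other promoter region was called by edgeR with the filter on low counts. Of 88 accessible regions within 10 kb of the genes, 54 had more than 1.5 CPM in at least 4 libraries and were tested. Of these, 6 were higher and 1 was lower in OHSCs at an adjusted p below 0.01, 13.0% in all, against 23.2% of the 89245 regions tested across the genome (13.7% higher and 9.54% lower). The ages did not overlap in 12 of the 54, and in 30.8% of all regions. The median log2 difference was 0.01 over the member regions and -0.01 over all regions. Runx1 had 2 higher of 16 tested, Runx2 3 higher and 1 lower of 28, Runx3 none of 6 and Cbfb 1 higher of 4. Of the 6 higher, 4 also exceeded 1.5-fold, 3 of Runx2 and 1 of Cbfb, where 10.1% of all regions were higher by that rule, and the lower one did not, where 2.9% were lower.

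**Figure D4:**
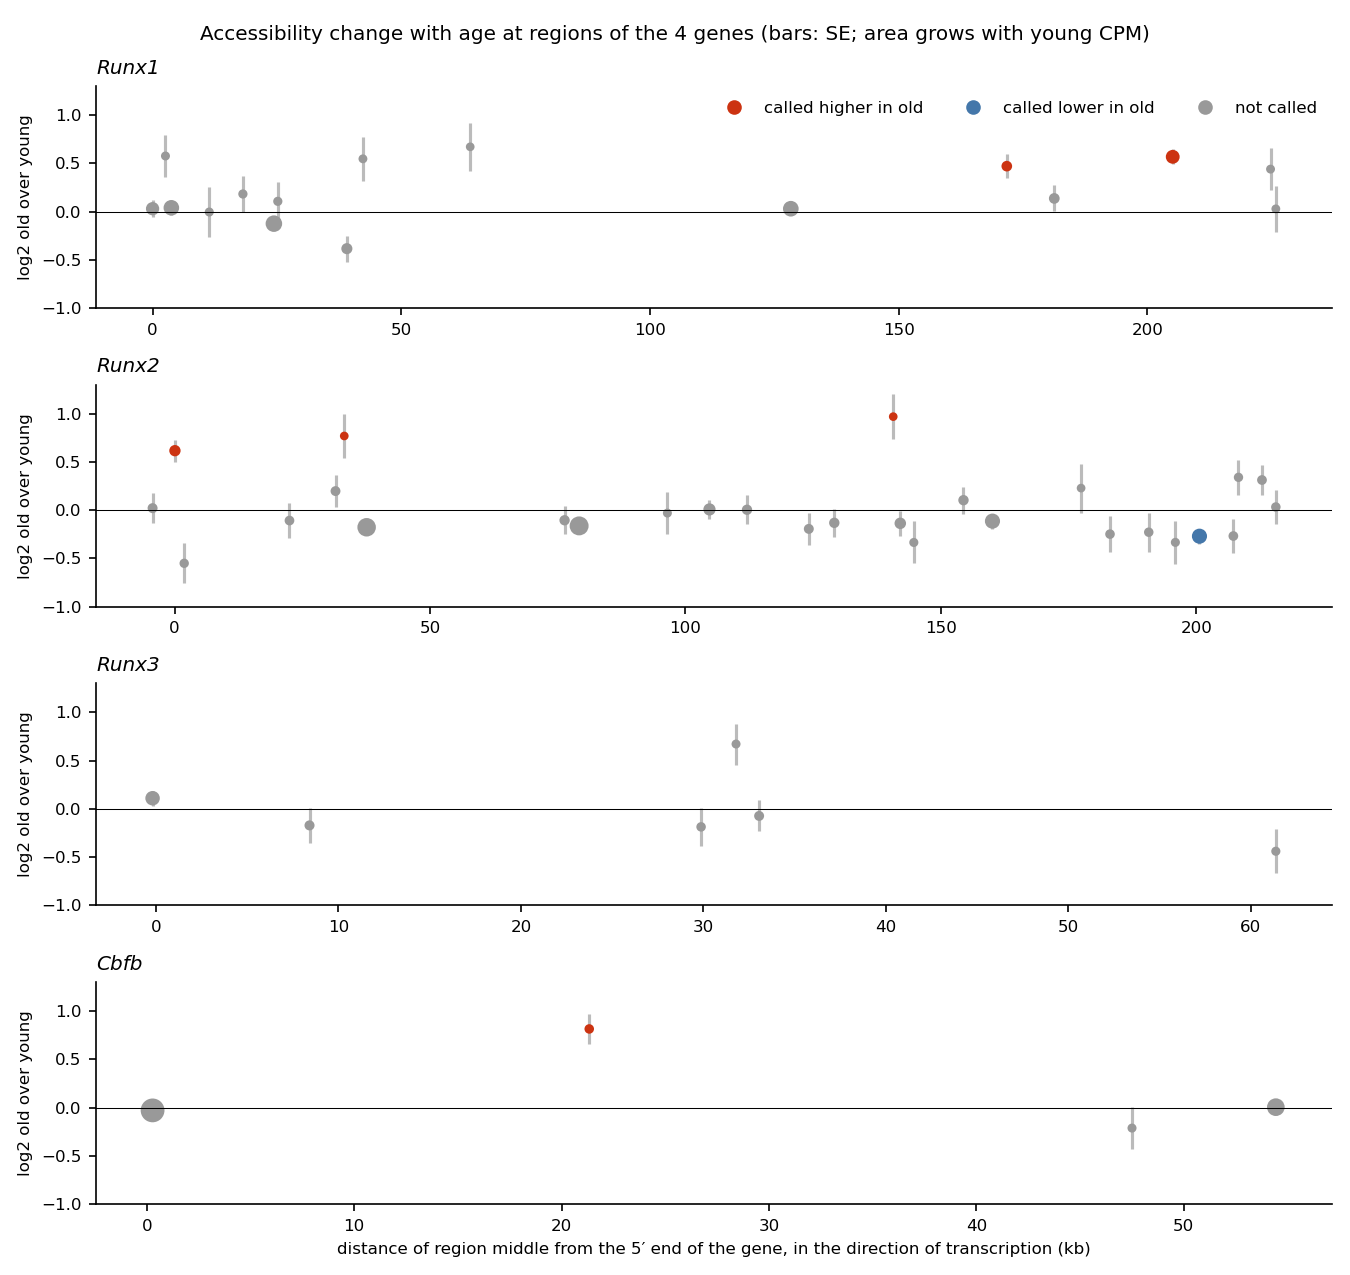
Log2 difference of accessibility between OHSCs and YHSCs (y axis, bars are SE) for the tested regions within 10 kb of each gene, by distance of the region's middle from the 5′ end of the gene (x axis, kb in the direction of transcription). Point area grows with the YHSC level. The called regions of Runx1 and Cbfb lie within the gene, and Runx2 also has one at its 5′ end.

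The Runx1 gene had 2 regions of higher accessibility in introns far from both promoters, both below 1.5-fold. The region chr16:92620554-92621601 was at 16.5, 16.8, 15.4 and 14.5 CPM in YHSCs and 24.01, 21.85, 22.48 and 23.40 CPM in OHSCs (log2 difference 0.57, SE 0.0764, adjusted p = 2.36e-08 by edgeR). A second intronic region, chr16:92653865-92655002, was at 6.22, 5.53, 6.91 and 4.94 CPM against 8.98, 8.23, 7.49 and 7.57 CPM (0.47, SE 0.127, adjusted p = 0.00268). The ages were separate at both, and the second call was lost without YHSC replicate 4 (adjusted p = 0.0267) or OHSC replicate 5 (0.0127). Its promoters did not pass the test. P1, chr16:92825759-92826550, was at 13.4 to 14.7 CPM in YHSCs and 13.6 to 14.4 CPM in OHSCs (0.03, adjusted p = 0.832), and P2, chr16:92696756-92698948, averaged 22.9 and 23.0 CPM (0.03, adjusted p = 0.789).

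At Runx2, whose RNA fell, the distal promoter became more accessible. The region chr17:44814129-44815322 was at 9.53, 6.27, 7.83 and 7.48 CPM in YHSCs and 11.9, 12.6, 9.73 and 13.1 CPM in OHSCs (log2 difference 0.62, SE 0.114, adjusted p = 1.96e-05 by edgeR), with all OHSC libraries above all YHSC ones. The proximal promoter, chr17:44734453-44736771, was the more accessible of the pair at 37.7, 35.8, 38.9 and 41.0 CPM and was at 31.9, 35.7, 32.5 and 34.6 CPM in OHSCs. All OHSC libraries were below all YHSC ones there, but the difference of -0.16 had an adjusted p of 0.0248 by edgeR and was not called at 0.01. With no filter on low counts it was called (-0.19, adjusted p = 0.00955 by edgeR).

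Within Runx2 introns, chr17:44673903-44674355 was at 0.838, 0.943, 1.918 and 1.504 CPM in YHSCs and 2.68, 2.28, 2.43 and 2.87 CPM in OHSCs (0.97, SE 0.236, adjusted p = 0.000868 by edgeR). It was lost without YHSC replicate 1 (adjusted p = 0.0112). The region chr17:44781493-44781672 was at 1.08, 1.01, 1.84 and 1.58 CPM against 2.43, 2.43, 2.24 and 2.33 CPM (0.77, SE 0.229, adjusted p = 0.00663), and kept its call in 3 of 8 fits that each left out 1 library. DESeq2 did not call it (adjusted p = 0.0105). The 1 region that was lower in OHSCs, chr17:44613675-44614702, was at 19.8, 22.4, 20.2 and 20.4 CPM against 15.03, 16.8, 18.7 and 16.5 CPM (-0.27, SE 0.0790, adjusted p = 0.00587), and kept its call in 2 of 8 such fits.

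No region of Runx3, the gene with the largest RNA change, was called. Its distal promoter, chr4:135120036-135120892, was at 17.3, 16.0, 20.6 and 19.0 CPM in YHSCs and 19.2, 19.0, 18.6 and 21.0 CPM in OHSCs (0.11, adjusted p = 0.302 by edgeR). The proximal promoter, chr4:135152136-135152738, was at 2.35, 0.809, 2.07 and 2.66 CPM against 3.32, 3.49, 3.36 and 2.68 CPM, and although the ages did not overlap the difference of 0.67 (SE 0.212) had an adjusted p of 0.0106. It was called without YHSC replicate 4 (0.83, adjusted p = 0.00574) or OHSC replicate 8 (0.76, adjusted p = 0.00741). The neighbouring region chr4:135153389-135154015 differed by -0.07 (adjusted p = 0.768).

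The Cbfb promoter, chr8:105170086-105171824, was the most accessible of the promoters at a mean of 67.0 CPM in YHSCs and 64.5 CPM in OHSCs (-0.03, adjusted p = 0.661 by edgeR). An intron of Cbfb, chr8:105191526-105192488, rose from 3.19, 2.90, 2.92 and 3.66 CPM to 4.96, 6.41, 5.02 and 5.55 CPM (0.81, SE 0.155, adjusted p = 2.92e-05). The middle 200 bases are shown for called intronic regions of Runx1 (highest significance), Runx2 (largest difference) and Cbfb. The core word TGTGGT is present in the Runx2 and Cbfb windows and not in that of Runx1. Across the genome, 20.3% of all tested regions and 30.5% of those higher in OHSCs held it in their middle 200 bases. The longer form TGTGGTT, used below, is present only in the Runx2 window. The sequences are from GRCm38.p6 on the plus strand, and the capitals mark the core word TGTGGT.
Runx1 intron, chr16:92620978-92621177: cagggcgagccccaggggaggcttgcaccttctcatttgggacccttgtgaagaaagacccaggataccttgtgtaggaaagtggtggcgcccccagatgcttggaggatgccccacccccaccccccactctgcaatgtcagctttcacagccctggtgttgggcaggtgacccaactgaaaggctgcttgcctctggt
Runx2 intron, chr17:44674030-44674229: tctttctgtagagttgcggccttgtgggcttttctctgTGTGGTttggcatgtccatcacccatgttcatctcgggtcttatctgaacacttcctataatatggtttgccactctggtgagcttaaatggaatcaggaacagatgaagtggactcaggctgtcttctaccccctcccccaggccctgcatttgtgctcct
Cbfb intron, chr8:105191908-105192107: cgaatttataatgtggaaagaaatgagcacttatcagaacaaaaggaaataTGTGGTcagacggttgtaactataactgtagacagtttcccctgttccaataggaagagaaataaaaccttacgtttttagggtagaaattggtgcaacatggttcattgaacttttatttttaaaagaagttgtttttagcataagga

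By size, H3K27ac was higher in OHSCs at 1 intronic peak each of Runx1, Runx3 and Cbfb. A peak was called higher when the ratio of the means exceeded 1.5 and each OHSC library was at least 1.2 times each YHSC library, a rule of size with no test, and 3 of the 24 member peaks met it and none met its reverse. Across 39557 peaks, 9.11% met the rule upward and 2.27% downward (3602 and 898 peaks, or 2773 and 1437 with libraries set to the same median). Limma on log2(signal + 0.5), which called 2.94% of peaks, called 0 of the 24, of which 2 had an unadjusted p below 0.05. The Runx1 intronic peak chr16:92620304-92621967, which overlaps the accessible region above, had a signal of 2.52 and 2.28 in YHSCs and 3.54 and 3.82 in OHSCs (ratio 1.53, adjusted p = 0.0822 by limma). The Cbfb intronic peak chr8:105191849-105192663 had 1.42 and 1.06 against 1.83 and 2.19 (ratio 1.62, adjusted p = 0.152 by limma), and the Runx3 intronic peak chr4:135140427-135140988 had 0.808 and 0.655 against 0.974 and 1.51 (ratio 1.70, adjusted p = 0.293 by limma). By mean signal the Runx1, Cbfb and Runx3 peaks were at the 70.4, 37.1 and 5.31 percentile of all peaks. In all 3 the ages were separate, which the rule itself requires. The ages were separate in 9 of the 24 member peaks and in 47.6% of all peaks. Without OHSC replicate 2 the ratios of the 3 peaks were 1.47, 1.48 and 1.33, below the rule. Without YHSC replicate 2 those of Runx1 and Cbfb were 1.46 and 1.42, and with libraries set to the same median that of Runx1 was 1.44, also below it.

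Ratios at promoters were smaller. They were 0.998 at Runx1 P1 and 1.04 at P2, 1.17 at the Runx2 distal promoter and 0.982 at the proximal one, 1.23 at the Runx3 distal promoter and 0.889 at the proximal one, and 0.819 at Cbfb. The ages did not overlap at the distal promoters of Runx2 (3.16 and 2.66 against 3.34 and 3.49) and Runx3 (3.76 and 3.40 against 4.17 and 4.67). The strongest member peak, chr17:44613109-44615324 in a Runx2 intron, had 13.7 and 10.9 in YHSCs and 11.3 and 10.8 in OHSCs (ratio 0.897), at the 99.1 percentile of all peaks.

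The promoters of one gene carried different marks in YHSCs, where levels are given for 2 libraries per mark with no test. H3K4me3, a mark of active promoters, was 26.9 and 28.8 at Runx1 P1 (97.3 percentile of 33199 peaks) and 11.5 and 11.4 at P2 (65.3 percentile). At Runx2 the order was reversed, with 31.7 and 33.3 at the proximal promoter (99.5 percentile) and 5.31 and 4.28 at the distal one (47.6 percentile). Runx3 had 4.23 and 4.67 at the distal and 7.52 and 8.11 at the proximal promoter, and Cbfb had 23.1 and 22.4 (89.1 percentile).

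H3K27me3, the mark set by Polycomb complexes, covered Runx3 from chr4:135137000-135176999, a domain that includes the proximal and leaves out the distal promoter, with a signal of 1.65 and 1.51 at the 99.4 percentile of 55820 peaks. Runx2 had 2 weak intronic peaks of the mark, at 0.519 and 0.374 and at 0.379 and 0.274, and no peak was assigned to Runx1 or Cbfb. H3K36me3 domains, which mark transcribed gene bodies and were given in 1 table that names no sample or age, covered 99.3% of Runx1, 95.1% of Cbfb, 79.7% of Runx2 and 31.4% of Runx3.

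The DNA word known to be recognised by RUNX proteins, whose binding was not measured here, was more frequent in regions that were more accessible in OHSCs. The longer form of that word, TGTGGTT, or AACCACA on the other strand, was present in the middle 200 bases of 15.4% of the 12235 regions higher in OHSCs (95% exact binomial interval 14.7 to 16.0%). It was present in 8.11% of the regions not called (7.90 to 8.31%) and in 4.23% of the 8510 regions lower in OHSCs (3.81 to 4.68%). The other core word of RUNX proteins, TGCGGT, ran in the opposite direction, with 3.196% of the regions higher, 4.03% of those not called and 6.00% of those lower. The reversed letters of the first word, TTGGTGT, were present in 2.62%, 2.57% and 1.89%. Regions with the word were called higher in 24.1% of cases and lower in 4.62%, and those without it in 12.7% and 10.0%. The 3 classes of region also differed in base composition, with a median GC content of 45.5% in those higher, 49.5% in those not called and 57.0% in those lower, and the part of base composition in the shares was not tested. Neighbouring regions are not independent, and the intervals cover counting error only.

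**Figure D5:**
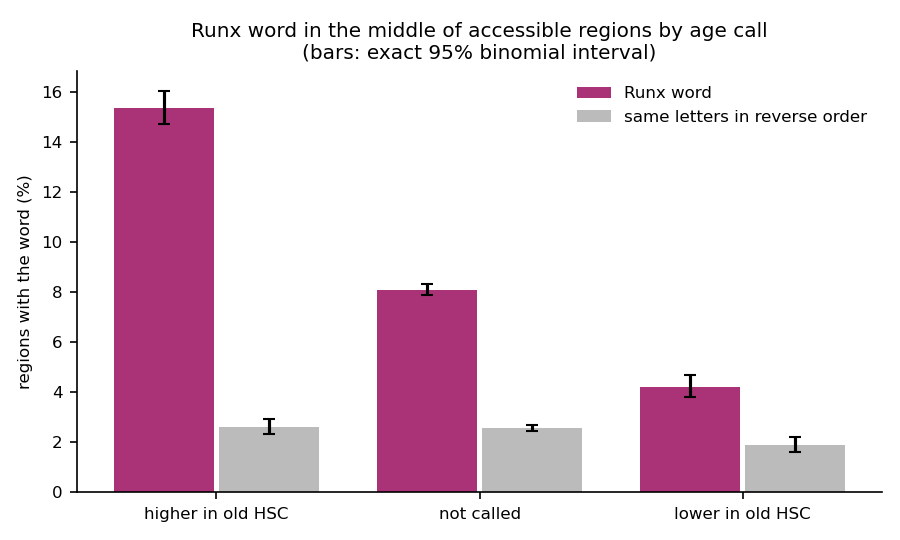
Share of accessible regions (y axis, percent) that hold TGTGGTT, or its reversed letters TTGGTGT, in the middle 200 bases, for regions higher in OHSCs, not called and lower in OHSCs (x axis). Bars are 95% exact binomial intervals, and the word falls from 15.4% to 4.23% across the classes.

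The word was also present in the genes' own regulatory windows. In the RefSeq promoter windows, from 250 bases before to 50 after the start, the distal promoter of Runx2 held 3 copies and those of Runx1 and Runx3 held 2 each, including the pairs printed above, whereas 5.27% of 32851 promoter windows held at least 1. The proximal windows of Runx1 and Runx3 and that of Cbfb held none. The called distal promoter region of Runx2 as a whole held 4, as did the P1 region of Runx1, which was not called.

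Genes that work with RUNX proteins changed with age in both directions. The lists of partners, co-regulators and targets were set from textbook knowledge with earlier results of these data known. Over all genes 11.9% were higher and 8.67% lower, which is the background of every count here. Of the 19 partner transcription factors, 6 were higher and 3 lower in OHSCs (median log2 difference 0.10, against -0.01 over all genes). Gata2, a stem cell factor, averaged 548 CPM against 421 CPM in YHSCs (0.40, adjusted p = 1.09e-06 by edgeR) and Ets1 71.5 against 53.6 CPM (0.44). Gata1, the erythroid factor, averaged 4.53 against 12.2 CPM (-1.41) and Spi1, the myeloid factor PU.1, 48.9 against 64.1 CPM (-0.37). The erythroid marker sum moved in the same direction as Gata1, with Car1 at 7.30 against 126 CPM but Hba-a1 at 17.1 against 2.19 CPM, and its part was not tested.

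Of 27 co-regulators tested, 6 were higher and 5 lower. The paralogous YAP family coactivators moved in opposite directions, with Wwtr1, encoding TAZ, at 52.4 CPM in OHSCs and 11.9 CPM in YHSCs (log2 difference 2.15, SE 0.0787, adjusted p = 1.34e-15 by edgeR) and Yap1 at 1.63 and 4.80 CPM (-1.53, adjusted p = 1.44e-06). Runx1t1, encoding the corepressor ETO, was at 36.8 and 24.2 CPM (0.63) and Tle3, a Groucho corepressor, at 48.0 and 33.9 CPM (0.52).

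Of 18 tested Runx1 targets of blood cells, 4 were higher and 6 lower. Itga2b, the platelet integrin CD41, was at 215 CPM in OHSCs and 92.4 CPM in YHSCs (1.24, SE 0.0764, adjusted p = 2.71e-09 by edgeR) and Alox12, the platelet lipoxygenase, at 6.87 and 3.52 CPM (0.98). Itga2b is also 1 of the 6 genes of the megakaryocyte marker sum, which was higher in OHSCs, and the part of that sum in its difference was not tested. Csf2rb, a shared cytokine receptor chain, was at 10.1 and 25.1 CPM (-1.30). Mpo, the granule peroxidase, averaged 0.713 against 6.95 CPM (-3.25, adjusted p = 0.047), but without YHSC replicate 3, which held 25.99 CPM, the difference was 0.26 (adjusted p = 0.772). Of the bone targets of Runx2, 2 of 9 tested were lower and none higher, Tnfsf11 (0.815 against 2.88 CPM) and Vegfa (7.49 against 14.2 CPM, -0.91, adjusted p = 6.02e-08). Of the lymphocyte targets of Runx3, 1 of 9 was lower, Il4 (7.21 against 18.4 CPM, -1.33), and none was higher, a share near that of all genes.

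In culture, where 1.7% of all genes were higher and 1.66% lower, knockdown changed Gfi1 (8.86 CPM against 14.4 CPM in the control, -0.69, adjusted p = 0.0035 by edgeR) and Spi1 (92.9 against 80.8 CPM, 0.21) among the partners, none of 27 co-regulators by edgeR (6 at an unadjusted p below 0.05, and Cbfa2t3 called by DESeq2, which also called the partner Tal1), 4 targets of Runx1 upward and 1 downward of 16, of which Spi1 (upward) and Gfi1 (downward) are in both lists, with Cd34 at 767 against 541 CPM (0.51, adjusted p = 5.32e-06), and Itgal of 6 tested Runx3 targets (-0.88). Without control replicate 1 the adjusted p by edgeR was 0.0912 for Gfi1, 0.283 for Spi1 and 0.257 for Itgal, and without control replicate 2 it was 0.0703, 0.318 and 0.0864. The Spi1 call was also lost without any single shRNA library (adjusted p from 0.0582 to 0.0693) and with the replicate block (0.0829). None of 6 tested bone targets of Runx2 was called. After transplantation and in the interaction edgeR called no member of these lists, with 0 to 4 per list at an unadjusted p below 0.05. DESeq2 called 1 listed gene after transplantation, Mmp9, and 3 in the interaction, Cd34, Gfi1 and Mmp9.

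Among the progenitors, 16 of 18 tested Runx1 targets were lower and 2 higher in MEP than in CMP, with a median log2 difference of -7.31 against -0.07 over all genes, of which 35.6% were lower and 28.9% higher. Cd34 was at 1.26 CPM in MEP and 1009 CPM in CMP, and the granule protease Ctsg at 1.05 and 810 CPM. Of the 19 partners, 13 were lower and 6 higher in MEP than in CMP, led by Cebpa (0.136 against 59.9 CPM) and Gfi1 (0.136 against 34.0 CPM). Of 24 co-regulators, 14 were lower and 7 higher, with Tle2 at 0.476 against 7.84 CPM. Of 8 tested Runx3 targets, 4 were lower and 1 higher, and among the lower ones the integrin Itgal was at 1.57 against 181 CPM. In GMP against CMP, where 18.8% of all genes were higher and 16% lower, 4 partners were higher and 10 lower, including Gfi1b (4.00 against 77.3 CPM), 8 Runx1 targets were higher and 9 lower, and 2 co-regulators were higher and 10 lower.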

How the data were processed

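The deposited mRNA-seq files held raw gene counts, which the authors made with cutadapt, STAR and featureCounts on mm10 with GENCODE gene models, and the deposited ATAC-seq files held raw counts per region (BWA and MACS2, per the labels and methods). The deposited histone files held peak signal, scaled by the authors to 10000000 reads. The methods describe averaging in 1-kb bins, and how these values were combined within a peak could not be told from them. The strand and multimapping settings of the counting are not stated in the sources used here. The labels name different library kits for HSC and shRNA samples, and the methods assign them otherwise. The 92 spike-in rows, 6.05 to 6.93% of reads in YHSC and OHSC libraries, were left out. The histone tables' own fold columns were not used, nor were 8 per-sample columns for OHSCs that no sample label matched (4 ATAC-seq, 4 H3K4me3 and H3K27me3).

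Counts were tested with edgeR 4.0.16 (TMM, filterByExpr, robust quasi-likelihood fit, R 4.3.3), with Benjamini-Hochberg adjustment over all genes or regions. Genes were called at an adjusted p below 0.05 and regions at 0.01. H3K27ac was ranked by a rule of size and fitted by limma 3.58.1 on log2(signal + 0.5). Levels are CPM with TMM over 30 libraries, so a ratio of CPM can differ slightly from a fitted difference. p-values measure the spread between samples. Only GENCODE M21 was at hand for transcript starts. The text names the 4 members, up to 4 called genes of each list for age and up to 2 for other comparisons, the regions within 1 kb of a transcript start, the called regions, and the 3 most similar genes per member. The strongest H3K27ac peak, the Runx2os genes and the other antisense genes were added after their values were seen. The members and lists were chosen with earlier results of these data known. Scripts were tested on simulated counts. Alternatives were DESeq2 1.42.0, DESeq2 size factors, no low-count filter, a replicate block, each shRNA alone and leaving out each library. No 2 libraries of a group differed by as little as sampling noise (mean chi-square per gene from 5.06 to 21.5 over 43 pairs).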

Additional observations from a re-analysis of the deposited data

Results flagged for a closer look

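Of 36 values in groups of 4 to 10 libraries that were tested for a library far from the others, 1 stood out, where chance gives about 1 in 20. At the distal promoter of Runx1, the region starting at 92825759 on chromosome 16, the highest YHSC library in ATAC-seq had 14.7 CPM and the next 13.7 CPM, a gap of 0.834 of the whole range of the 4 YHSC libraries. The region was not called with age with or without that library.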

How the results depend on the processing

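The age differences of Runx1 (0.26 to 0.34), Runx2 (-0.34 to -0.22) and Runx3 (0.58 to 0.84) kept their direction and call, and Cbfb (0.08 to 0.11, adjusted p from 0.065 to 0.356) stayed without one, under DESeq2, its size factors, no filter, the replicate block and without each library. Same-numbered libraries did not deviate together (correlations of deviations from -0.166 to 0.030 over 22 pairs), so the numbers were not taken as pairs. Where the groups held 2 libraries each, both pairs give the same correlation by construction, so they are not separate values. The replicate block changed no member's call, and called 3544 genes for age instead of 4434, 445 in culture instead of 665 and 13 in the interaction instead of 45.

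In culture, single shRNAs gave Runx1 0.17 (shRNA1), Cbfb -0.15 (shRNA1) and Runx3 -0.24 (shRNA2), each called. Over all genes, 805 of 19184 were called higher and 1111 lower with shRNA1 alone, and 663 of 19118 higher and 807 lower with shRNA2 alone. After transplantation Runx2 was 0.078 with shRNA1 and -0.17 with shRNA2, neither called. Leaving out 1 library at a time, Runx2 ranged from -0.17 to 0.075 in culture. After transplantation Runx1 ranged from -0.0055 to 0.16, Runx2 from -0.13 to 0.062 and Runx3 from -0.15 to 0.03. In the interaction Runx1 ranged from -0.12 to 0.034 and Runx2 from -0.11 to 0.13. For GMP against CMP, Runx2 ranged from -0.35 to -0.30 and Cbfb from -0.20 to -0.11. The region of Runx1 P2 ranged from -0.0087 to 0.072 and the second proximal region of Runx3 from -0.13 to 0.027. A sole library left in a group was assumed to vary like the others. The age difference of Mpo ranged from -3.64 to 0.26, and its call was lost with no filter, with the replicate block and without any 1 of the OHSC libraries or YHSC replicate 3.

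Counts of called genes moved more. In culture, 665 became 1299 with no filter, 1916 with shRNA1 alone, 1470 with shRNA2 alone and 141 to 683 without single libraries, and the 676 genes with an unadjusted p below 0.05 and a fold above 1.5 became 1066 with no filter. After transplantation, 0 became 60 with DESeq2 and 1 with shRNA2 alone, and the 455 at that unadjusted p and fold became 728 with no filter and 758 with shRNA2 alone. The interaction's 45 became 299 with DESeq2, 94 with no filter and 1 to 117 without single libraries. For H3K27ac, 1164 peaks called by limma became 91 to 4809 without single libraries, 3602 higher by size became 2773 with libraries set to the same median, 2665 with a mean signal of at least 1 and 3843 to 7051 without single libraries, and 898 lower became 1437 with the same median and 1098 to 2162 without single libraries.

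The share of regions with the word was, for those higher, lower and not called, 30.5%, 12.5% and 19.4% with TGTGGT, 3.196%, 6.00% and 4.03% with TGCGGT, and 23.4%, 7.78% and 13.3% in the middle 400 bases. With a fold above 1.5 as well it was 16.1% and 5.25% for those higher and lower. The cause of these shifts was not tested.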
